A study of Mus musculus with 9 samples.

Results

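Cyclic AMP phosphodiesterases are the enzymes that break down the second messenger cAMP. The genes described here are 10 members of that family, chosen by gene name: Pde1b, Pde3b, Pde4a, Pde4b, Pde4c, Pde4d, Pde7a, Pde7b, Pde8a and Pde8b. They are 10 of the 55536 genes in the deposited table, and 7 of them passed the filter on low values (a normalized count of at least 10 in at least 3 libraries), as did 14695 genes in all. Pde4c, Pde7b and Pde8b did not pass it.

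RNA of epidermal keratinocytes was sequenced in 9 mice, 3 each of the genotypes WT, Hmga2-/- and K5H2. Mice were 8 weeks old with dorsal follicles in telogen, the resting phase of the hair cycle, and all 9 had received 2 doses of 20 mJ/cm2 of UVB on the back within 3 days. Skin was taken 24 h after the second dose, and the epidermis was lifted off after a night on 0.25% trypsin. Hmga2-/- mice lack Hmga2, the gene of an architectural chromatin factor with a preference for AT-rich DNA. The abbreviation K5H2 is used as the labels give it, since they do not explain it. There was no unexposed group, so each comparison is between genotypes after UVB. By its title the study asks how Hmga2 and cAMP bear on melanocyte stem cells after UVB.

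Adenylyl cyclases make cAMP when a receptor such as the melanocortin receptor activates the stimulatory G protein, and cAMP then activates protein kinase A, which phosphorylates CREB. Phosphodiesterases end that signal and keep it local, because each is tethered near particular receptors or anchoring proteins. PDE4, PDE7 and PDE8 enzymes hydrolyse cAMP alone, PDE1 enzymes act on cAMP and cGMP and need calcium and calmodulin, and PDE3 enzymes act on cAMP and are held back by cGMP. In skin, PDE4 inhibitors are used as drugs against psoriasis and atopic dermatitis, and in melanocytes PDE4D forms a negative feedback on melanocortin signalling through MITF.

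In these epidermal samples Pde4b, Pde7a and Pde8a made up 89.4% to 94.6% of the family's normalized counts in each library. Pde1b came next, while Pde3b, Pde4a and Pde4d were close to the filter and the remaining 3 genes were at or near 0. None of the 7 tested members differed between genotypes at the threshold, an adjusted p under 0.05 in limma, in any of the 3 comparisons, where 0.497% to 1.28% of all tested genes did. For Pde4b all 3 Hmga2-/- animals lay below all 3 WT and all 3 K5H2 animals. Separation within a single comparison is common: Hmga2-/- lay wholly below WT in 14.9% of all tested genes, and K5H2 wholly above Hmga2-/- in 13.8%. The share of genes with Hmga2-/- below both other genotypes at once was not computed.

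Promoter sequences are shown for 2 of the 3 abundant genes, whose levels were highest and lowest in the same libraries and each of which has a window with the core letters of the site that CREB binds. RefSeq windows (GRCm38.p6) run from 250 bases before a transcription start to 50 bases after it, and 19 windows of 8 members were found, with none for Pde3b and Pde7a. Capitals mark TGACG, or CGTCA where it is read on the other strand. The full palindrome TGACGTCA holds both of these and counts as a match to either. Pde4b has 4 windows, and the one printed is the only one of them with a match; the other 3 hold none. It lies at chr4:102421305-102421604 on the plus strand, and its match starts 34 bases before the transcription start. Pde8a has 1 window, at chr7:81213015-81213314 on the plus strand, with its match 84 bases before the start. These RefSeq starts are not the gene starts given below. The Pde8a window ends before its gene start at 81213596, and the Pde4b window lies inside the gene, which starts at 102087543.
Pde4b: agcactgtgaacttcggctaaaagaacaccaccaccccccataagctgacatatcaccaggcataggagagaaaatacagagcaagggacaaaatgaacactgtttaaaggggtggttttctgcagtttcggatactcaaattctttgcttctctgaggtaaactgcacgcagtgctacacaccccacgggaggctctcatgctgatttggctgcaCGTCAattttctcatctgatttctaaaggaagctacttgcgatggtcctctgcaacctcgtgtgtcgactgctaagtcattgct
Pde8a: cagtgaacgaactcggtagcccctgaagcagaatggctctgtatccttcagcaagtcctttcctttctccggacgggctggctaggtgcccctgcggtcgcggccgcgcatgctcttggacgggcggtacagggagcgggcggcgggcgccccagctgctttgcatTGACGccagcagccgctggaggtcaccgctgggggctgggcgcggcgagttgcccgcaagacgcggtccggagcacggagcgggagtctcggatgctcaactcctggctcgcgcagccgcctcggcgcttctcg
The core letters stood in 4 of the 19 member windows (21.1%), 1 each for Pde4a, Pde4b, Pde8a and Pde8b, against 20.8% of all 32851 windows. The full palindrome stood in 0 member windows and in 1.79% of all windows. A match is a description of the letters and not a binding site. Bases A and T made up 22.7% to 60.3% of the member windows, around a median of 47.3% over all windows.

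WT 1 and Hmga2-/- 3 stood apart from the other 7 libraries. They lay at the ends of the first principal component of all tested genes, at 84.6 and -76.4, with 36.6% of the variance, and the other 7 libraries lay between them, the nearest at -30.2 and 31.04. Approximate depth was 15.4 M reads in Hmga2-/- 3 and 28.1 to 41.5 M in the other 8 libraries, so that 1 read was worth 2.34 normalized counts in Hmga2-/- 3 and 0.723 to 1.17 elsewhere. For Hmga2 itself the WT animals had 346, 11 and 56 normalized counts, the Hmga2-/- animals 3, 9 and 7, and the K5H2 animals 4, 11 and 0. The log2 difference of Hmga2 was -3.18 for Hmga2-/- against WT (SE 1.17, limma adjusted p = 0.152), so the label was matched in direction but not at the threshold. For K5H2 the Hmga2 difference was -3.98 against WT (limma adjusted p = 0.116) and -0.81 against Hmga2-/- (limma adjusted p = 0.710). The labels do not say which part of the gene is deleted. The basal keratinocyte keratin genes Krt5 (465923 to 636557) and Krt14 (434658 to 1053120) were high in all 9 libraries, and all 8 keratinocyte markers were at 10 or more in every library. The sum of these 8 markers was not even: it was lowest in WT 1 (2.37e+06) and highest in Hmga2-/- 3 (4.64e+06). Its part in the phosphodiesterase levels was not tested.

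Levels of different genes were compared per kilobase of exon, with overlapping exons of a gene merged. On that scale Pde8a ranged from 68.7 to 143 normalized counts per kb over the 9 libraries, Pde7a from 44.9 to 97.1, Pde4b from 28.1 to 53.3 and Pde1b from 4.82 to 18.3. The order Pde8a, Pde7a, Pde4b, Pde1b was the same in all 9 libraries. It depends on the length used: merged exons cover 10560 bases in Pde4b, which has 9 coding transcripts, and 4045 bases in Pde8a, which has 1. Per kilobase of the longest coding transcript instead, Pde4b ranked above Pde8a and Pde7a in 7 of 9 libraries, so the order among these 3 genes is not settled by gene-level counts. The other tested genes were lower, at 2.08 to 4.72 per kb for Pde3b, 1.57 to 3.53 for Pde4a and 1.00 to 2.92 for Pde4d. Their ranges overlapped.

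**Figure D1:**
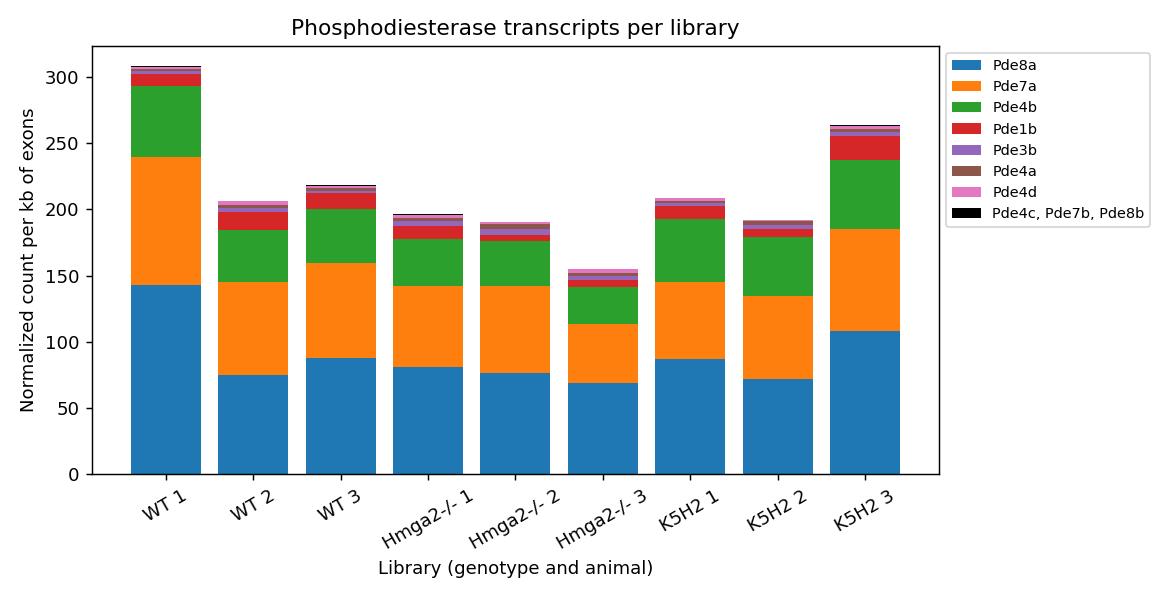
Stacked bars give the normalized counts per kb of merged exons of each phosphodiesterase gene (y axis) in each of the 9 libraries (x axis). Pde8a, Pde7a and Pde4b fill 89.5% to 95.1% of every bar, and the tallest bar is WT 1 and the shortest Hmga2-/- 3.

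Pde4b (chromosome 4, 102087543 to 102607259, plus strand, GRCm38) encodes a cAMP-specific enzyme that is abundant in leukocytes and is a target of anti-inflammatory PDE4 inhibitors. WT 1 to 3 had 563, 419 and 427 normalized counts, Hmga2-/- 1 to 3 had 375, 356 and 297, and K5H2 1 to 3 had 504, 470 and 551. The Hmga2-/- animals were the 3 lowest of the 9, and the WT and K5H2 animals overlapped. Means were 470 ± 80.9 in WT, 343 ± 40.7 in Hmga2-/- and 508 ± 40.7 in K5H2 (SD, n = 3 each).

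Between K5H2 and Hmga2-/- the log2 difference of Pde4b was 0.57 (SE 0.18, 95% interval 0.18 to 0.97), a 1.49-fold higher level in K5H2 that missed the threshold (limma adjusted p = 0.141). Its unadjusted p of 0.00867 from the limma fit across all genes ranked it 905th of 14695 genes. The exact two-sided permutation p was 0.1, which is the minimum for groups of 3. The authors' deposited table gives a log2 fold change of 0.56 with an adjusted p of 0.0812. Without Hmga2-/- 3 and WT 1 the difference was 0.47 (adjusted p = 0.146), and without WT 1 alone it was 0.57 (adjusted p = 0.0835, limma).

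Between Hmga2-/- and WT the log2 difference of Pde4b was -0.45 (SE 0.18, 95% interval -0.84 to -0.05, limma adjusted p = 0.173; exact permutation p = 0.1). It was -0.31 without WT 1, -0.35 without Hmga2-/- 3 and -0.21 without both (adjusted p = 0.760), so its size depended on those libraries. K5H2 and WT had a log2 difference of 0.12 with a 95% interval of -0.27 to 0.52 (adjusted p = 0.745, limma), which leaves room for up to a 1.43-fold higher level in K5H2.

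Leukocyte markers were examined beside Pde4b because the gene is active in those cells. All 8 T cell markers were at 10 or more in every library, and their summed level was 1583 to 4885 in WT, 4388 to 5426 in Hmga2-/- and 1963 to 3046 in K5H2. All 8 markers of Langerhans and other antigen-presenting cells were present too, with sums of 6417 to 26447, 18639 to 38897 and 15616 to 25103. Thy1 was the largest part of the T cell sum, with means of 2150 ± 1109 (WT), 3515 ± 682 (Hmga2-/-) and 1243 ± 186 (K5H2, SD, n = 3). In K5H2 the other 7 markers together held more, with a mean sum of 1437. Without Thy1, a sum chosen after the values were seen, the other 7 T cell markers gave 491 to 1581, 1134 to 1444 and 930 to 1737, so that the genotypes overlapped and the mean was highest in K5H2. WT 1, with the highest Pde4b, had the lowest sums of both full lists. Their part in the Pde4b level was not tested. In such bulk samples fewer cells of a type and less RNA per cell cannot be told apart.

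Pde7a (chromosome 3, 19223108 to 19311322, minus strand) encodes a cAMP-specific enzyme with high affinity that the PDE4 inhibitor rolipram does not block. WT animals had 752, 546 and 558 normalized counts, Hmga2-/- animals 476, 509 and 348 and K5H2 animals 447, 489 and 599, for means of 619 ± 116, 444 ± 85.0 and 512 ± 78.5 (SD, n = 3). All Hmga2-/- animals lay below all WT animals, and K5H2 overlapped both. The log2 difference was -0.48 for Hmga2-/- against WT (SE 0.21, 95% interval -0.94 to -0.02, limma adjusted p = 0.194; exact permutation p = 0.1). It was -0.33 without WT 1, -0.31 without Hmga2-/- 3 and -0.16 without both (adjusted p = 0.830, limma). K5H2 differed from WT by -0.27 (interval -0.72 to 0.19, adjusted p = 0.515) and from Hmga2-/- by 0.21 (interval -0.24 to 0.67, adjusted p = 0.572; 0.04 without Hmga2-/- 3, all limma). An antisense gene, Gm16093, overlaps Pde7a exons but reached at most 1 normalized count.

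Pde8a (chromosome 7, 81213596 to 81334533, plus strand) encodes a cAMP-specific enzyme of very high affinity that resists the broad inhibitor IBMX. It had normalized counts of 577, 302 and 355 (WT), 327, 309 and 278 (Hmga2-/-) and 353, 290 and 437 (K5H2). WT 1 stood above the other 8 libraries and all 3 genotypes overlapped, with means of 411 ± 146, 305 ± 24.8 and 360 ± 73.8 (SD, n = 3). The log2 difference for Hmga2-/- against WT was -0.38 (SE 0.25, limma adjusted p = 0.360) and -0.11 without WT 1. For K5H2 it was -0.16 against WT (adjusted p = 0.776, limma) and changed sign to 0.12 without WT 1. Against Hmga2-/- it was 0.22 (adjusted p = 0.626, limma).

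The 3 abundant genes shared their extremes: WT 1 was the highest and Hmga2-/- 3 the lowest of the 9 libraries for Pde4b, Pde7a and Pde8a alike. The second highest library was K5H2 3 for each of them. Around each gene's own mean on the log2 scale, WT 1 stood at 0.38 for Pde4b, 0.55 for Pde7a and 0.72 for Pde8a, and Hmga2-/- 3 at -0.54, -0.56 and -0.33. These are also the libraries at the ends of the first principal component, and the shallower depth of Hmga2-/- 3 was given above. Markers of sebocytes, the lipid-secreting cells of the hair follicle's gland, had the same libraries as extremes. All 6 were at 10 or more in every library, and their sum was highest in WT 1 (31765) and lowest in Hmga2-/- 3 (4810). Of the 6, Scd3 alone was not highest in WT 1. The sebocyte sum did not follow K5H2 3, where it was 8129, below WT 3 (14321) and K5H2 1 (10433). By genotype that sum was 8639 to 31765 in WT, 4810 to 9766 in Hmga2-/- and 6981 to 10433 in K5H2. Dermal fibroblast markers (7 detected) summed to 569 to 1017, 1637 to 2152 and 1492 to 4584 in the same order of genotypes, and without Sparc, their largest part, to 37 to 96, 236 to 897 and 192 to 3201. Endothelial and muscle markers summed to at most 45 and 102 in any library. The part of any of these features in the phosphodiesterase levels was not tested. For the sum of all 10 genes WT animals had 2000, 1418 and 1463 normalized counts, Hmga2-/- animals 1313, 1291 and 1029 and K5H2 animals 1420, 1345 and 1758. The Hmga2-/- totals were the 3 lowest of the 9. Per M normalized counts of the library they were 28.5 to 42.96, against 46.1 to 70.0 in the other 6. That scale is not a separate check, because the Hmga2-/- libraries held the most normalized counts, at 30.6, 32.9 and 36.1 M. Rescaling to equal totals put the median log2 difference of all genes at -0.17 for Hmga2-/- against WT. How often other genes or sums have Hmga2-/- as the 3 lowest was not computed.

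**Figure D2:**
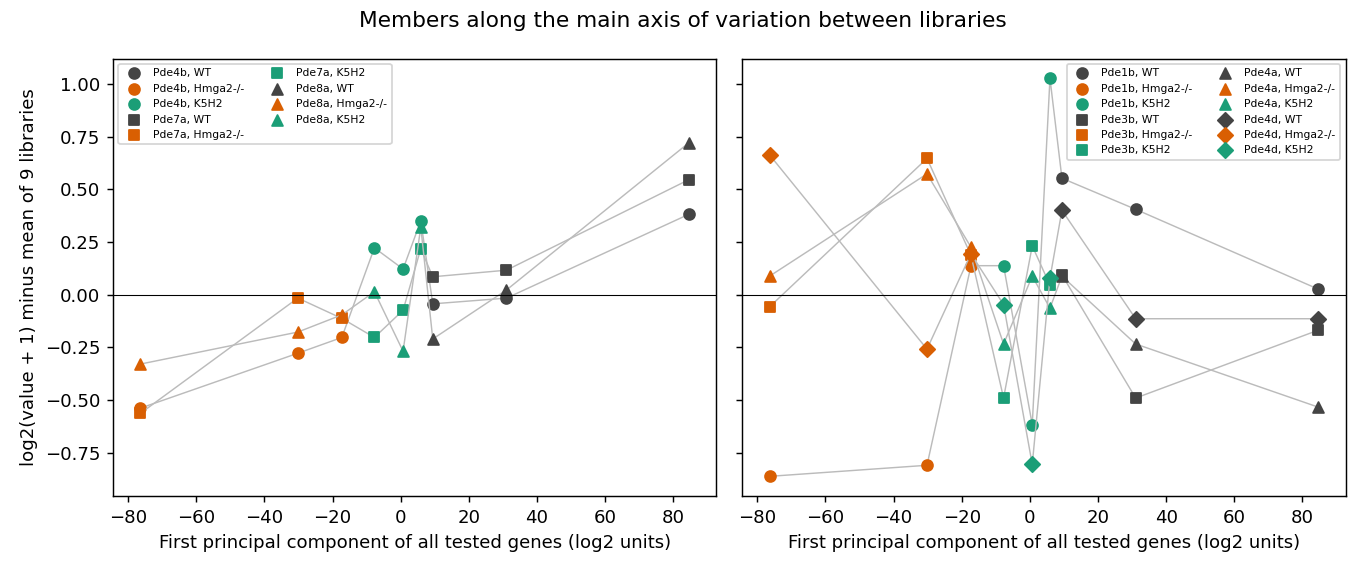
Each point is one gene in one library, with log2(normalized count + 1) minus the gene's mean over the 9 libraries (y axis) against the library's score on the first principal component of all tested genes (x axis, log2 units); colour gives the genotype and shape the gene. In the left panel Pde4b, Pde7a and Pde8a are lowest in the leftmost library, Hmga2-/- 3 at -76.4, and highest in the rightmost, WT 1 at 84.6; the 4 scarcer genes in the right panel have their extremes in other libraries, except Pde1b, lowest in Hmga2-/- 3, Pde4d, highest in Hmga2-/- 3, and Pde4a, lowest in WT 1.

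Pde1b (chromosome 15, 103503034 to 103530052, plus strand), the calcium- and calmodulin-dependent member, had normalized counts of 49, 71 and 64 (WT), 53, 27 and 26 (Hmga2-/-) and 53, 31 and 99 (K5H2). Hmga2-/- 2 and 3 and K5H2 2 were low, K5H2 3 was high, and the genotypes overlapped. Its log2 difference was -0.84 for Hmga2-/- against WT (SE 0.44, 95% interval -1.82 to 0.14, limma adjusted p = 0.266), the largest in size among the 7 members in that comparison. The differences were -0.15 in K5H2 against WT (interval -1.12 to 0.83) and 0.69 in K5H2 against Hmga2-/- (interval -0.28 to 1.67; limma adjusted p = 0.889 and 0.384). Without K5H2 2 the difference from WT changed sign to 0.25, and the spread among K5H2 animals (SD 34.7 around a mean of 61) was the widest of the 3 genotypes.

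Pde3b (chromosome 7, 114415281 to 114539251, plus strand) is the cGMP-inhibited form best known from fat and liver, where insulin activates it. WT animals had 24, 29 and 19 normalized counts, Hmga2-/- animals 31, 43 and 26 and K5H2 animals 19, 32 and 28. The 3 genotypes overlapped, and the log2 difference was 0.45 in Hmga2-/- against WT (SE 0.37, limma adjusted p = 0.457), 0.12 between K5H2 and WT (adjusted p = 0.893) and -0.33 in K5H2 against Hmga2-/- (adjusted p = 0.621). All 5 adipocyte markers were detected in at least 1 library, with sums of 74 to 288 in WT, 16 to 32 in Hmga2-/- and 6 to 36 in K5H2. Cidec was the largest part of that sum, with means of 164 (WT), 18 (Hmga2-/-) and 19.7 (K5H2). Adipoq, the defining marker, was at 0 in WT and K5H2 and at 7, 0 and 2 in Hmga2-/-. The part of adipocytes in the Pde3b level was not tested.

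Pde4a (chromosome 9, 21165714 to 21213248, plus strand) and Pde4d (chromosome 13, 108449948 to 109953461, plus strand) are the other PDE4 genes that passed the filter. Pde4a had normalized counts of 12, 19 and 15 (WT), 21, 27 and 19 (Hmga2-/-) and 15, 19 and 17 (K5H2), so the highest values of WT and of K5H2 equalled the lowest of Hmga2-/-. Its log2 difference was 0.52 in Hmga2-/- against WT (SE 0.37, limma adjusted p = 0.395), 0.16 in K5H2 against WT (adjusted p = 0.853) and -0.37 in K5H2 against Hmga2-/- (adjusted p = 0.591). Among the PDE4 genes Pde4a thus lay on the opposite side of 0 from Pde4b in both comparisons with Hmga2-/-, without passing the test.

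Pde4d, the form of the melanocyte feedback, had normalized counts of 20, 29 and 20 (WT), 25, 18 and 35 (Hmga2-/-) and 21, 12 and 23 (K5H2). Its log2 difference was 0.14 for Hmga2-/- against WT (SE 0.41, limma adjusted p = 0.851) and turned to -0.09 without Hmga2-/- 3 and to -0.02 when libraries were rescaled to equal totals. It was -0.32 in K5H2 against WT (adjusted p = 0.719, limma) and -0.46 in K5H2 against Hmga2-/- (adjusted p = 0.538). All 8 melanocyte markers were detected in at least 1 library, with sums of 413 to 633 in WT, 298 to 743 in Hmga2-/- and 658 to 1092 in K5H2. Mitf, the melanocyte regulator, had normalized counts of 151, 124 and 111 (WT), 175, 227 and 119 (Hmga2-/-) and 329, 237 and 260 (K5H2). All K5H2 animals had the highest Mitf values. K5H2 lay wholly above WT in 12.9% of all tested genes and wholly above Hmga2-/- in 13.8%. The mean of Pde4d in K5H2 was 18.7 ± 5.86 against 23 ± 5.20 in WT and 26 ± 8.54 in Hmga2-/- (SD, n = 3). Its values overlapped and it was not called, and a relation between Mitf and Pde4d was not tested. The part of the melanocytes in these levels was not tested.

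Pde4c (chromosome 8, 70723720 to 70751186), Pde7b (chromosome 10, 20398004 to 20725078) and Pde8b (chromosome 13, 95024454 to 95250336) were too low to compare. Pde4c was at 0 in all WT libraries, at 3, 0 and 0 in Hmga2-/- and at 0, 1 and 0 in K5H2. Pde7b read 3, 0 and 4 (WT), 0, 2 and 0 (Hmga2-/-) and 8, 0 and 2 (K5H2). Pde8b read 0, 3 and 1, then 2, 0 and 0, then 0, 1 and 2 in the same order. Over all 9 libraries these values stand for about 5, 23 and 9 reads. A listed 0 allows up to 3 reads, or 2.17 normalized counts in WT 3 and 7.02 in Hmga2-/- 3 for counting error alone, so differences between genotypes were not detectable at this depth. An antisense gene, Gm48420, overlaps exons of Pde8b and had 8 to 23 normalized counts; the labels do not say how strand was used in counting.

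**Figure D3:**
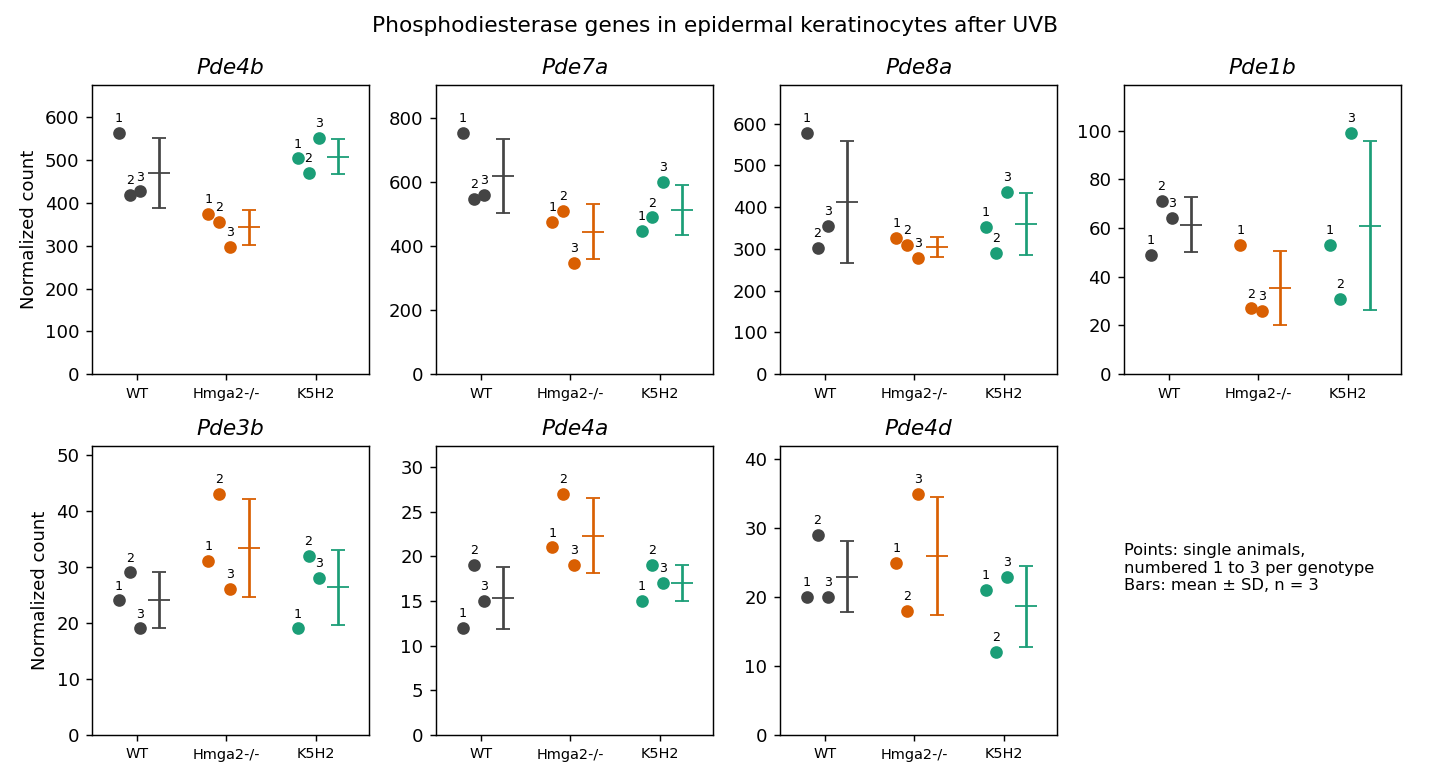
Normalized counts (y axis, starting at 0 and scaled per gene) of the 7 tested phosphodiesterase genes in each animal (points, numbered by animal) with the mean ± SD of 3 animals per genotype (bars). Pde4b is the panel in which all 3 Hmga2-/- points, 297 to 375, lie below the 6 others, 419 to 563.

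Read across the family, 0 of 7 tested members were called in each comparison. Over all genes tested by limma at the same threshold, 0.728% were called between Hmga2-/- and WT, 1.28% between K5H2 and WT, and 0.497% between K5H2 and Hmga2-/-, so that 0 of 7 is near the background. At an unadjusted p under 0.05 the limma fit gave 2 members between Hmga2-/- and WT (Pde4b and Pde7a), where 23.7% of all genes did so. It gave 0 members between K5H2 and WT (18% of all genes) and 1, Pde4b, between K5H2 and Hmga2-/- (21.1%). The authors' deposited table has no member under an adjusted p of 0.05, where its background is 7.66%, 5.82% and 4.03% of the genes given an adjusted p, and it gives none to Pde4c, Pde7b and Pde8b.

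Separation of all animals of one genotype from all of another is common in these data as well. Pde4b and Pde7a were the members whose 3 Hmga2-/- values all lay below the 3 WT values, which 14.9% of all genes also showed, and no member showed the reverse, seen in 14.8%. For K5H2 against Hmga2-/- only Pde4b had every K5H2 animal above, as did 13.8% of all genes, and no member had every K5H2 animal below (12.6%). For K5H2 against WT no tested member separated, against 14.1% of genes with K5H2 below and 12.9% with K5H2 above. The median log2 difference of the 7 members was -0.38 in Hmga2-/- against WT (4 negative, 3 positive; all genes -0.01), -0.15 in K5H2 against WT (4 negative, 3 positive; all genes -0.02) and 0.21 in K5H2 against Hmga2-/- (3 negative, 4 positive; all genes 0.01). The 3 comparisons share their groups, so these medians are not independent of each other.

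**Figure D4:**
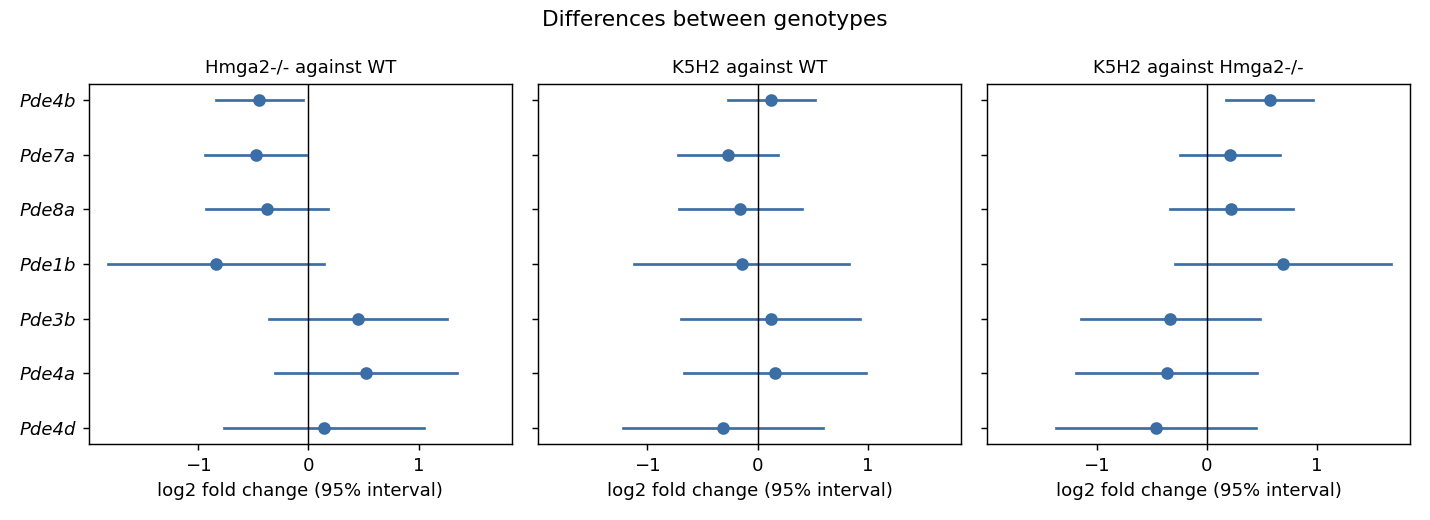
Points give the limma log2 fold change of each tested phosphodiesterase gene (x axis) and lines its 95% interval, before any adjustment for the number of genes, in the 3 comparisons (panels). The intervals of Pde4b and Pde7a lie below 0 for Hmga2-/- against WT and that of Pde4b above 0 for K5H2 against Hmga2-/-; all others cross 0.

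Most other genes of the phosphodiesterase superfamily fell below the filter. Of the other cAMP-hydrolysing genes Pde1a, Pde1c, Pde2a, Pde3a, Pde10a and Pde11a, 0 of 6 passed the filter; Pde2a and Pde11a were at 0 in all 9 libraries, and Pde1c reached the highest value among the 6, at 6 in Hmga2-/- 2. The list of cGMP-specific phosphodiesterases had 8 genes, not all of which encode catalytic subunits. Of these, 2 passed the filter, Pde5a and the non-catalytic Pde6d, and neither was called in any comparison. The one with the smallest p was Pde5a, the target of sildenafil, at 0.98 on the log2 scale for K5H2 against Hmga2-/- (SE 0.33, limma adjusted p = 0.157).

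Proteins that hold phosphodiesterases in place included the called genes closest to the family. Of 24 anchors and partners 19 were tested, and 1 was called higher for K5H2 against WT, 1 lower for K5H2 against Hmga2-/- and 0 for Hmga2-/- against WT. Over all genes the called shares were the 1.28%, 0.497% and 0.728% given above. At an unadjusted p under 0.05 in limma the list had 3, 8 and 5 of 19 genes in that order, against 18%, 21.1% and 23.7% of all genes. Pde4dip encodes myomegalin, a PDE4D-interacting protein of the Golgi and centrosome. WT animals had 203, 345 and 282 normalized counts, Hmga2-/- animals 363, 321 and 416 and K5H2 animals 592, 506 and 606, where all animals lay above the other 6. The rise of Pde4dip in K5H2 over WT was 1.06 on the log2 scale (SE 0.21, limma adjusted p = 0.0460), while Pde4d itself was not called. Arrb1 encodes beta-arrestin 1, a scaffold of activated receptors to which PDE4 enzymes bind. It had normalized counts of 1528, 1901 and 1730 (WT), 2036, 2064 and 2486 (Hmga2-/-) and 1238, 1103 and 990 (K5H2), so the 3 genotypes did not overlap. Between any 2 genotypes, separation in a given direction was seen in 12.6% to 14.9% of all tested genes. The share of genes separated across all 3 genotypes, as Arrb1 was, or with K5H2 above the other 6 animals, as Pde4dip was, was not computed. Arrb1 fell by 0.98 on the log2 scale in K5H2 relative to Hmga2-/- (SE 0.15, limma adjusted p = 0.0192), and its difference from WT was -0.63 (adjusted p = 0.0675).

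The calls of Pde4dip and Arrb1 lay close to the threshold. The adjusted p of Pde4dip ran from 0.0288 to 0.173 over the alternatives and was above 0.05 with any library other than WT 2 left out. That of Arrb1 ran from 0.0164 to 0.0998 and was above 0.05 without WT 3, Hmga2-/- 2, Hmga2-/- 3, K5H2 2 or K5H2 3. The log2 difference without WT 1 and Hmga2-/- 3 was 0.86 for Pde4dip (adjusted p = 0.0861) and -0.89 for Arrb1 (adjusted p = 0.0561, limma).

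Upstream and downstream of the phosphodiesterases few genes were called either. Of 10 adenylyl cyclase genes 5 were tested, and 1 was called, for K5H2 against WT, where 1.28% of all tested genes were called. This was Adcy7, with 175, 218 and 165 normalized counts (WT), 186, 168 and 196 (Hmga2-/-) and 413, 310 and 426 (K5H2); its log2 difference from WT was 1.03 (SE 0.20, limma adjusted p = 0.0424) and from Hmga2-/- 1.05 (adjusted p = 0.0544). At an unadjusted p under 0.05 in limma, 1, 3 and 2 of the 5 cyclase genes passed for Hmga2-/- against WT, K5H2 against WT and K5H2 against Hmga2-/-. Of the 19 genes in the CREB list that follows, 4, 4 and 2 passed. Among all tested genes 23.7%, 18% and 21.1% did so in that order. Of 19 CREB family and cAMP-response genes, all tested, 1 was called for K5H2 against WT. This was Sik1, a kinase induced by cAMP that restrains CREB coactivators, with 1194, 1714 and 1646 normalized counts (WT), 2564, 1878 and 2058 (Hmga2-/-) and 2429, 3268 and 3253 (K5H2) (0.98 on the log2 scale, SE 0.19, limma adjusted p = 0.0424). The adjusted p of Adcy7 was above 0.05 without WT 1 (0.103), WT 3, Hmga2-/- 1, Hmga2-/- 2 or any K5H2 library, and that of Sik1 without WT 1 (0.105), WT 3, Hmga2-/- 2, Hmga2-/- 3 or any K5H2 library. The calls of Adcy7, Sik1 and Pde4dip were also lost with no filter on low values or with only the genotypes compared in the limma fit, at adjusted p from 0.0541 to 0.0778.

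No gene was called in any comparison among the 9 tested genes of protein kinase A subunits and inhibitors, the 11 tested of 17 cAMP-raising receptors with their G protein, and the 4 tested of 5 other effectors and exporters. At an unadjusted p under 0.05 in limma these lists had 2, 3 and 1 genes between Hmga2-/- and WT, 2, 1 and 0 between K5H2 and WT, and 3, 1 and 0 between K5H2 and Hmga2-/-. The shares of all genes at that level were 23.7%, 18% and 21.1%. The smallest p in each belonged to Prkar2b, a regulatory subunit of protein kinase A (0.90 for K5H2 against Hmga2-/-, adjusted p = 0.142), to Ramp3, a partner of the calcitonin receptor-like receptor (1.31 for Hmga2-/- against WT, adjusted p = 0.127), and to Rapgef3, the cAMP-activated exchange factor EPAC1 (-1.77 for Hmga2-/- against WT, adjusted p = 0.141, all limma).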

How the data were processed

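Keratinocyte RNA of 9 mice was sequenced from stranded, polyadenylated libraries, per the labels' protocols. Trim Galore, STAR, DESeq2 and GRCm38 are named in the submitters' processing notes, without versions. Per the file headers the 9 columns hold normalized counts; all values are integers, so the authors had rounded them, and they were treated as a score and not as raw counts; the authors' mean of them, also a score, was deposited too. For each comparison the authors deposited p-values, adjusted p-values and log2 fold changes.

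Depth was estimated from genes listed above 0 in 1 library, whose unrounded value follows from the deposited mean; of these, 98.0% to 100% lay within 0.1 reads of whole multiples of 1 step. The total of each library was 27.4 to 36.1 M normalized counts. The planned test for normalized values was limma-trend 3.58.1 in R 4.3.3, two-sided, on log2(value + 1), in 1 fit of all 9 libraries with a mean per genotype. Genes at 10 or more in at least 3 libraries were tested, and p-values were adjusted by Benjamini-Hochberg over all 14695. Fold changes on this scale understate those of low genes. The fit was also run on simulated data with the same dispersion for all genes and no outlying libraries. That run does not speak to the differences here. All 10 gene positions equal those of GENCODE M21, which gave exon lengths; Python 3.11.15 and matplotlib 3.10.9 were used. Genes named are all 10 members, Hmga2, called members of each list and, where none was called, the 1 with the smallest p, with markers beside a result. Members and lists were chosen with earlier results of these data known. Alternatives changed the scaling, pseudocount, filter, variance model, replicate block and libraries in the fit. Floors of 3 reads cover counting error only. There were 3 separate animals per genotype.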

Additional observations from a re-analysis of the deposited data

How the results depend on the processing

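No phosphodiesterase gene was called under any alternative; the smallest adjusted p was 0.0645, for Pde4b in K5H2 against Hmga2-/- with libraries rescaled to equal totals. That log2 difference ranged from 0.47 to 0.81 over its 19 alternatives. Of 390 member values under alternatives 381 kept their sign. The others were Pde4d for Hmga2-/- against WT (-0.016 with equal totals, -0.016 with voom, -0.18 without both WT 1 and Hmga2-/- 3, -0.090 to 0.37 with 1 library left out) and, for K5H2 against WT, Pde8a (0.12 without both; -0.35 to 0.12 with 1 left out), Pde3b (-0.034 to 0.33) and Pde1b (-0.57 to 0.25). The cause was not tested. A filter at 50 leaves 4 members to test.

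Counts of called genes over the whole table moved more. For Hmga2-/- against WT, 107 genes were called, against 193 with equal totals, 38 with only the genotypes compared, 0 without both WT 1 and Hmga2-/- 3 (1156 at an unadjusted p under 0.05 in limma), and 1 (without WT 3) to 482 (without WT 2) with 1 library left out. For K5H2 against WT, 188 were called (96 higher, 92 lower), against 291 with quantile normalization, 284 with a pseudocount of 10, 119 with a filter at 50, 103 with only the genotypes compared, 74 without both, and 17 (without WT 3) to 307 (without WT 2). For K5H2 against Hmga2-/-, 73 were called (53 higher, 20 lower), against 320 with equal totals (294 higher, 26 lower), 295 with voom (271 and 24), 42 without both, and 19 (without K5H2 3) to 213 (without WT 1). With equal totals the K5H2 and WT split was 145 higher and 73 lower, and with voom 121 and 57. Equal totals shifted the median log2 difference of all genes to -0.17 (Hmga2-/- against WT) and 0.23 (K5H2 against Hmga2-/-), against which the Pde4b value of 0.80 in the latter is to be read.

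The replicate block gave 123, 120 and 85 called genes in the order above, with 0 phosphodiesterase genes in each; Pde4dip, Adcy7 and Sik1 then had adjusted p of 0.0647, 0.0689 and 0.0624 in K5H2 against WT. Same-numbered libraries did not deviate together (correlations -0.22 to 0.21), and the labels do not pair animals. Approximate depth limits the 3 lowest members, and 3 animals per group cannot reach an exact permutation p under 0.1.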

Other observations

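The ratio of Pde4b to Pde7a was higher in the K5H2 animals, a pattern noticed after the values were seen and given as a description. The ratio of their normalized counts, which does not depend on how libraries are scaled, was 0.749, 0.767 and 0.765 (WT), 0.788, 0.699 and 0.853 (Hmga2-/-) and 1.13, 0.961 and 0.920 (K5H2). All 3 K5H2 ratios lay above the 6 others, and WT and Hmga2-/- overlapped. WT 1 and Hmga2-/- 3, which stood at the extremes of both genes, had ratios of 0.749 and 0.853. Ratios of Pde4b to each of 14312 other tested genes that were above 0 in every library put all K5H2 animals above all the other 6 for 10.7% of genes. Such a separation is thus not rare for Pde4b and not particular to its ratio with Pde7a. The means were 0.760 ± 0.0103 in WT, 0.780 ± 0.0773 in Hmga2-/- and 1.00 ± 0.110 in K5H2 (SD, n = 3).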
